A study of Drosophila melanogaster with 3 samples.

Results

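The circadian clock genes described here are the 8 core clock genes of Drosophila melanogaster, Clk, cyc, per, tim, vri, Pdp1, cwo and cry, among the 13945 protein-coding genes of the 6 chromosome arms used. They were taken by name, and their peaks by position. A peak belonged to a gene when its summit, the position of its highest signal, lay in the gene body or within 5 kb of one of its transcription start sites (TSSs), which is called the gene's window below. The peaks come from chromatin immunoprecipitation and sequencing (ChIP-seq) of SREBP, the sterol regulatory element binding protein of flies, in 3 biological replicates of whole wandering larvae of the third instar, with males and females pooled and the age not known. All 3 replicates came from the same kind of transgenic line, in which GFP was joined to the N-terminal end of SREBP and stably expressed. The sources used here do not name what drives the transgene. The precipitation used an antibody against GFP. These form a single group, so no condition was compared and no control library was used here. The authors' lists, on the dm6 build, held 30000 peaks per replicate, another 30000 from pooling them, and 7993 in an optimal set chosen for reproducibility, which was also the 7993 strongest pooled peaks. Read depth is unknown, because peak lists carry no read counts, and a peak list gives no expression level by which the labelled stage could be checked.

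The clock is a feedback loop. Clk and cyc encode basic helix-loop-helix (bHLH) proteins that pair and activate genes through E-boxes, of which CACGTG is the preferred form. Their targets per and tim encode the proteins that return to the nucleus and block the pair. In a second loop the bZIP repressor vri and the bZIP activator Pdp1 act on Clk, cwo encodes a bHLH-Orange repressor that competes at E-boxes, and cry encodes the blue-light photoreceptor that leads to the loss of the tim protein. SREBP is itself a bHLH leucine zipper protein, and its family is known to bind E-boxes as well as sterol regulatory elements.

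The sequences under the peaks are shown first because the E-box is what the clock activators and the SREBP family have in common as background. The windows below are 101 bp of the dm6 reference, centred on the summit and read 5′ to 3′ on the gene's strand, with the 11 bases around the summit in capitals. They are the strongest vri peaks, the strongest promoter peaks of vri and cry, the strongest Pdp1 peak, and the strongest per peak, which lay outside the optimal set.
vri, first intron, chr2L:5292720-5292820, plus strand: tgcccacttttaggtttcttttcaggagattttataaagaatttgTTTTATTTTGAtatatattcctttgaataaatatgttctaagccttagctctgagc
vri, first intron, chr2L:5293327-5293427, plus strand: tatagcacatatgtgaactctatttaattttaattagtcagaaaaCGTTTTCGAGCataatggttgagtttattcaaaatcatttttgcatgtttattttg
vri, promoter of transcript vri-RC, chr2L:5299405-5299505, plus strand: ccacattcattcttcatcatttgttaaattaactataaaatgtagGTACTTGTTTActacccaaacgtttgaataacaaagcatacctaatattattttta
cry, promoter, chr3R:19211879-19211979, plus strand: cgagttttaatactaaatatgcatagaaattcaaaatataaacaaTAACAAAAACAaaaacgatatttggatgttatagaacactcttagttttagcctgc
Pdp1, intron, chr3L:7863855-7863955, minus strand: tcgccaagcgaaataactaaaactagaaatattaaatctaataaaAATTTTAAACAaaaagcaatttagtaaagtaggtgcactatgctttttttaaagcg
per, promoter, chrX:2685219-2685319, plus strand: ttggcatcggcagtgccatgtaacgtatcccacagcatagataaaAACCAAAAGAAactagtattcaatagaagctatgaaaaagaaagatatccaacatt
None of these 6 windows holds CACGTG, and the looser E-box CANNTG occurs once in the second and once in the third vri window.

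Among the 8 genes, vri held the most optimal SREBP peaks, the most per length and the strongest. Its window had 36.7 optimal peaks per 100 kb and that of Pdp1, the other bZIP gene, 8.21, against 8.07 over the windows of all protein-coding genes. An optimal peak lay in the windows of 5 of 8 clock genes (62.5%), vri, cyc, Pdp1, cry and cwo, against 55.7% of all protein-coding genes, so the count is near the background. An optimal peak within 500 bp of a TSS, called a promoter peak here, was present at 3 of 8 (37.5%), vri, Pdp1 and cry, against 28.7% of all protein-coding genes. The repressors per and tim and the activator Clk had no optimal peak at all. In whole larvae, binding in few cells and weak binding in many cells cannot be told apart in a peak's strength.

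Those 5 genes held 19 optimal peaks, of which vri had 10, Pdp1 5, cyc 2, cwo 1 and cry 1. Each listed peak was counted, also where the intervals of neighbouring peaks overlapped, as at cyc and once at Pdp1. The windows of all 8 genes together had 10.8 optimal peaks per 100 kb, against the same 8.07. Without vri the other 7 genes had 9 peaks, or 6.08 per 100 kb, so the value above the background rested on that gene. The median was 1 peak per window in the clock genes and 1 in all protein-coding genes, with median windows of 17.9 kb and 10 kb. The window length matters for such counts: 52.5% of protein-coding genes with windows up to 12 kb had an optimal peak, 66.3% of those with 12 to 20 kb and 71.0% of those above 20 kb.

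**Figure D1:**
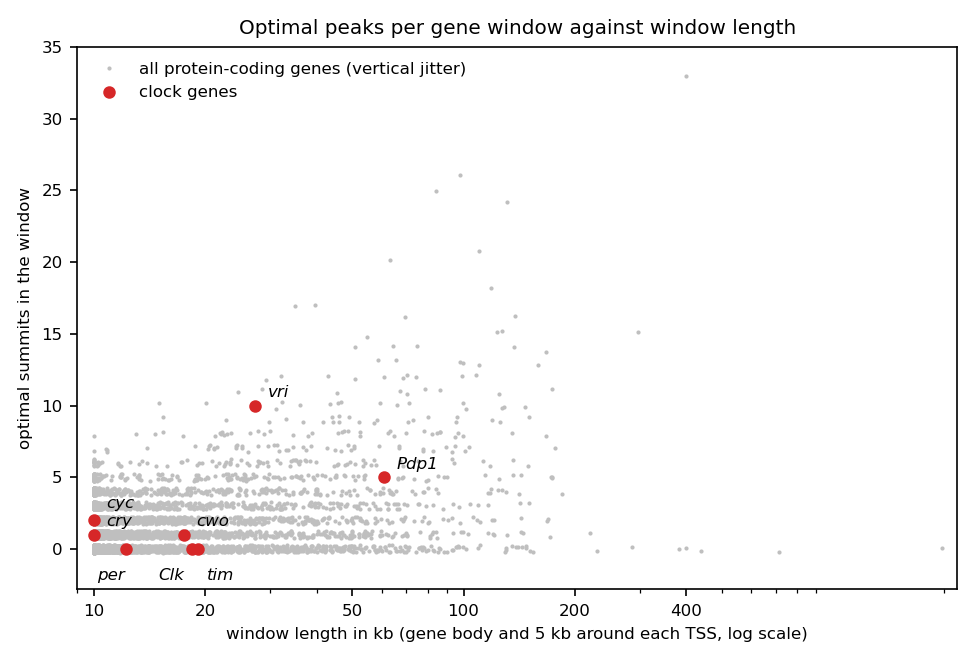
Number of optimal summits in each gene's window (vertical axis) against the length of the window in kb (horizontal axis, log scale); each grey point is a protein-coding gene, with a small vertical jitter, and red points are the 8 clock genes. vri has 10 summits in a 27.3 kb window and Pdp1 5 in 60.9 kb, while Clk, per and tim lie at 0.

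The plot of summits against window length shows vri high among genes of its length and Pdp1, with the longest window of the 8, within the spread of genes of similar length. Of all protein-coding genes, 0.452% had at least as many optimal peaks in the window as vri. The strongest peak of vri was at rank 120, and 2.27% of genes had a window peak at that rank or above. Both shares are over all protein-coding genes, most of which have windows up to 12 kb. No such share was taken among genes with windows as long as that of vri. All ranks are by the peak caller's signal value, the authors' own measure, whose scale is not given, and rank 1 is the strongest peak of a list.

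The 19 peaks lay mostly in introns, with 12 in an intron of a protein-coding gene, 5 within 500 bp of a protein-coding TSS and 2 outside protein-coding genes. Over the whole optimal set 36.9% were intronic, 41.5% at protein-coding TSSs and 20.2% outside protein-coding genes. Outside the windows of vri and Pdp1, which are the longest of the clock genes, the only intronic peak was that of cwo. The 2 outside, upstream of vri, lay in the body of the non-coding gene lncRNA:CR44743. In 16 of 19 the nearest TSS of a protein-coding gene was the clock gene's own. The exceptions were both peaks assigned to cyc and 1 assigned to Pdp1. A match within 150 bp among the 7993 strongest peaks of every replicate was found for 15 of 19 peaks (78.9%), against 71.8% of all optimal peaks. A further 3 peaks were found in 2 replicates and 1, that of cwo, in 1 replicate. All vri peaks but that at rank 6795 were among the 15, so this share also rested largely on vri. It was not taken without that gene.

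**Figure D2:**
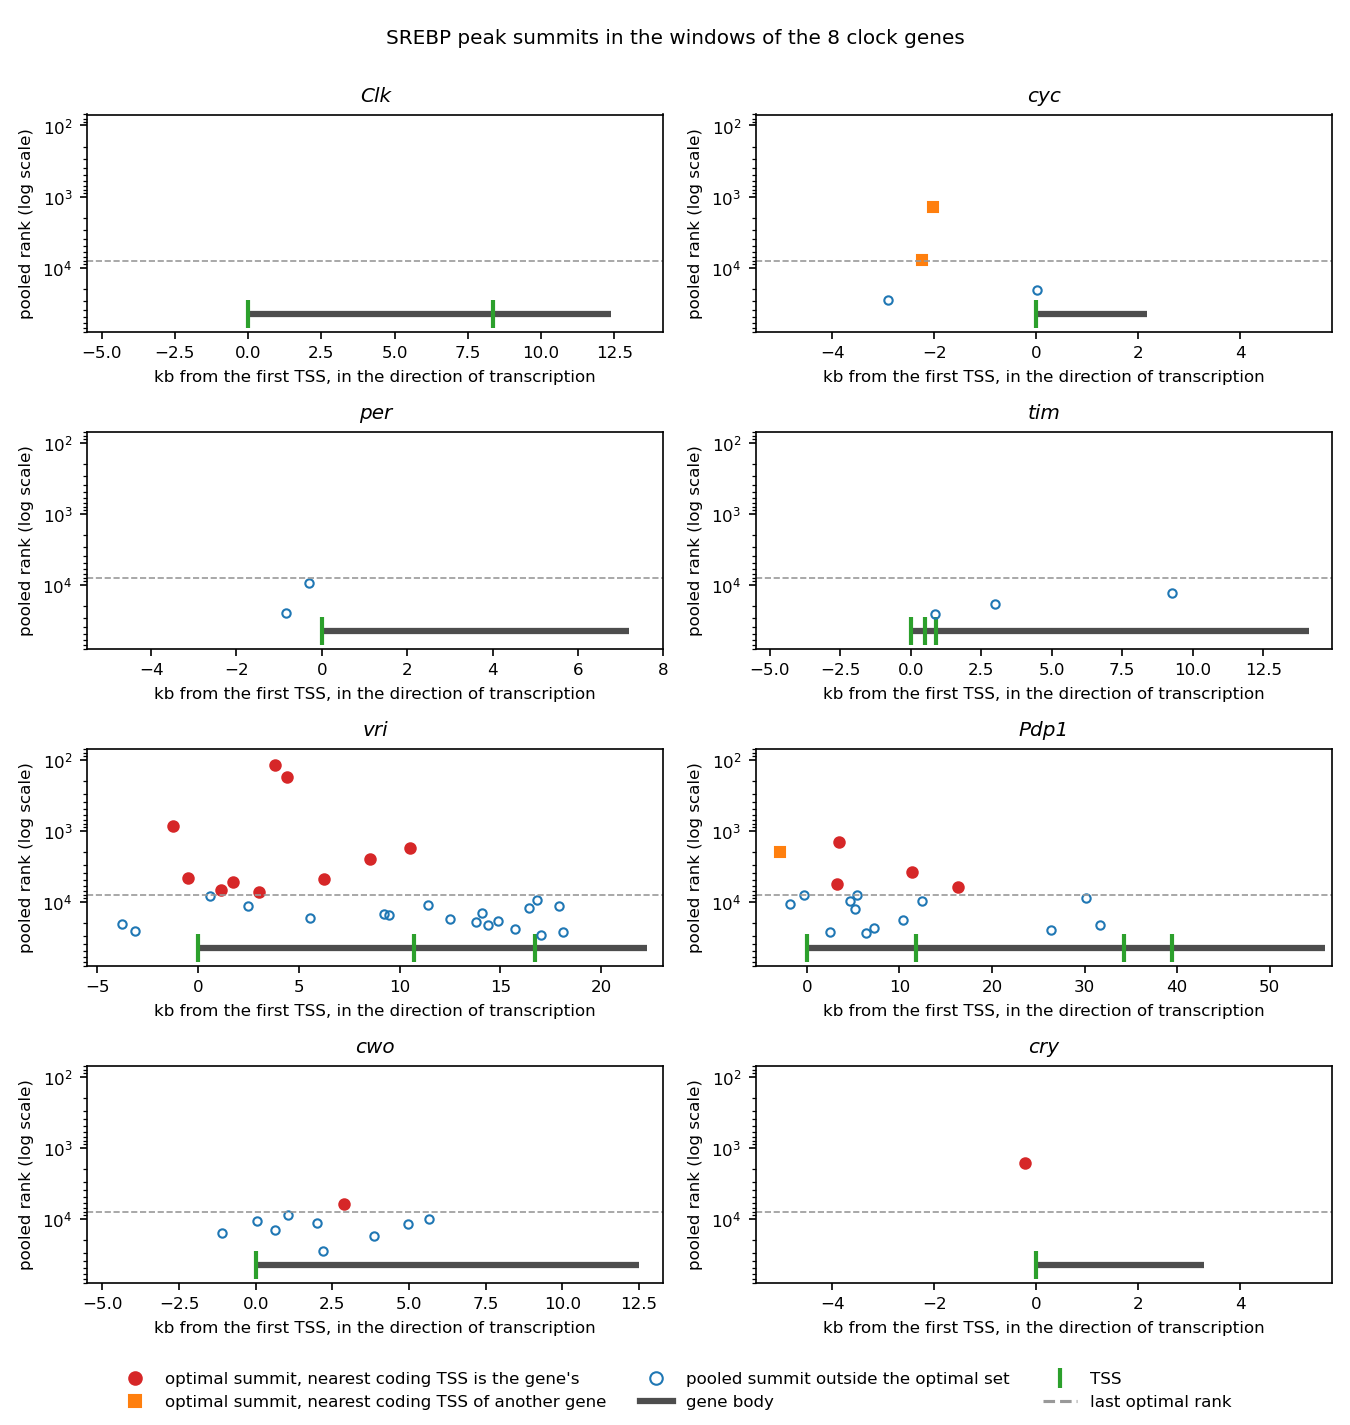
Positions of peak summits in the 8 windows, in kb from the first TSS in the direction of transcription (horizontal axis), against pooled rank on a log axis with the strongest at the top. Filled symbols are optimal summits (circles where the nearest protein-coding TSS is the gene's own, squares where it is another gene's), open circles are pooled summits outside the optimal set, green ticks are TSSs and the dashed line is the last optimal rank; the vri summits crowd between its first and second TSS and the window of Clk is empty.

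vri (FBgn0016076, chr2L:5288944-5311223, plus strand) encodes the bZIP repressor of Clk transcription and has 3 TSSs. The first belongs to transcript vri-RE, the second, 10.7 kb downstream, to vri-RC, and the last, 16.7 kb downstream of the first, to vri-RA, vri-RD and vri-RF. Of its 10 optimal summits 8 lay between the first and the second TSS and 2 upstream of the first, within a span of 11.7 kb. The gene also had 29 pooled peaks in its window, and pooled peaks covered 37.9% of the window's bases, against 13.8% over the 8 windows together and 7.92% of the 6 arms.

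The strongest vri peak lay in the first intron, 3826 bp downstream of the vri-RE start. It ranked 118, 121 and 122 in replicates 1, 2 and 3 (mean 120 ± 2.08, SD, n = 3), and the signal value was 1759, 1379 and 1358 in the same order. The replicates thus gave it almost the same rank. The next vri peak had its summit 607 bp further on, 4433 bp from the vri-RE start, and ranked 185, 158 and 191 in replicates 1, 2 and 3 (mean 178 ± 17.6). These 2 peaks were separate intervals in the pooled list, and their sequences head the list above.

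Next came the vri peak at pooled rank 857, which lay 1221 bp upstream of the vri-RE start and ranked 969, 692 and 997 in replicates 1, 2 and 3 (mean 886 ± 169). Its summit also lay in the non-coding gene lncRNA:CR44743, 125 bp upstream of the start of lncRNA:CR44742. With the first-intron pair it made up all 3 clock gene peaks among the 1000 strongest optimal peaks.

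The promoter peak of vri was at vri-RC. Its summit lay 192 bp upstream of that start, at pooled rank 1774, and ranked 1846, 1476 and 2203 in replicates 1, 2 and 3 (mean 1842 ± 364). The vri-RE start had an optimal summit 517 bp upstream, just beyond the promoter distance, at rank 4575, with replicate ranks of 5544, 4242 and 5110 (mean 4965 ± 663). In replicates 2 and 3 that summit lay within the distance, 456 and 486 bp upstream. The shared start of vri-RA, vri-RD and vri-RF had none in the optimal set. Its strongest pooled summit lay 92 bp downstream at rank 9424, with replicate ranks of 8187, 9919 and 15829 (mean 11312 ± 4007), so that among the alternative promoters of vri the middle one ranked highest in each replicate list.

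The fifth peak of vri, at rank 2503, lay 2161 bp upstream of the vri-RC start and ranked 2534, 3171 and 2109 in replicates 1, 2 and 3 (mean 2605 ± 535). It also fell in the body of lncRNA:CR45730, 442 bp from its start. The remaining 4 optimal peaks, all intronic, had pooled ranks of 4838 to 7295. All of these 4 but that at rank 6795, which ranked 8925 in replicate 3, were among the strongest 7993 peaks of every replicate. The weakest vri peak inside the optimal set was at rank 7295 and the strongest outside it at 8427.

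Pdp1 (FBgn0016694, chr3L:7811458-7867369, minus strand) encodes the bZIP activator that shares binding sites with the vri protein, and has 4 TSSs over 39.4 kb. Its strongest optimal peak was intronic, 3464 bp downstream of the first start, that of Pdp1-RF and Pdp1-RO. That peak ranked 1112, 2290 and 1426 in replicates 1, 2 and 3 (mean 1609 ± 610, n = 3). A neighbouring peak, whose interval overlapped that of the strongest, lay 3262 bp downstream of the same start at pooled rank 5576. It ranked 13042, 7196 and 5084 (mean 8441 ± 4122), so replicate 1 held it only outside its strongest 7993.

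The promoter peak of Pdp1 lay nearest the second TSS, shared by 7 of its 13 transcripts. The summit lay 462 bp upstream, at pooled rank 3775, and ranked 2689, 6021 and 3804 in replicates 1, 2 and 3 (mean 4171 ± 1696). The first start had a summit 331 bp upstream in the pooled list only, at rank 8147, just outside the optimal set. Its ranks of 6194, 6282 and 9831 in the replicates were within the strongest 7993 in 2 of them. The remaining starts, each with 2 transcripts, had no pooled summit within 500 bp. Replicate 1 alone had a peak at each, 384 bp upstream of the Pdp1-RD start at rank 10111 and 47 bp upstream of the Pdp1-RC start at rank 16770. The use of the start sites in these larvae was not measured.

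Of the other Pdp1 peaks, that at rank 6251 was intronic, 4520 bp downstream of the second start, and ranked 5733, 7624 and 6350 in replicates 1, 2 and 3 (mean 6569 ± 964). The peak at rank 2005 lay 2854 bp upstream of the first start, in an intron of the neighbouring gene CG32365, whose own start was nearer at 1181 bp. It ranked 1740, 1961 and 2344 (mean 2015 ± 306), so its spread was the smallest of the 5 Pdp1 peaks, but its position does not single out Pdp1.

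cry (FBgn0025680, chr3R:19212154-19215442, plus strand), the photoreceptor gene, showed the simplest pattern. Every list held exactly 1 peak in its 10 kb window, at the single promoter, 225 bp upstream of the start that cry shares with lncRNA:CR46393. The peak ranked 1661 in the pooled list and 1256, 2633 and 1562 in replicates 1, 2 and 3 (mean 1817 ± 723, n = 3), with signal values of 448, 203 and 317. Replicate 2 thus ranked it lowest. Which of the paired transcripts the peak serves was not measured.

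The genes whose strongest promoter peak had replicate ranks most like those of the cry peak were found among 3613 genes with a promoter peak in all replicates, by the distance between log2 ranks over the 3 replicates. Snrk and Usp20-33, which share 1 peak at rank 1562, were nearest, at a distance of 0.0741 with ranks of 1195, 2601 and 1557. CG8778 and ZnT49B, which share the peak at rank 1571, followed at 0.0935. With so many genes compared over 3 values, close matches are numerous and describe the ranks only.

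cwo (FBgn0259938, chr3R:10388258-10400752, plus strand), the bHLH-Orange repressor gene, had a single optimal peak in an intron, 2867 bp downstream of its start. It ranked 6195 in the pooled list and 11856, 4033 and 8350 in replicates 1, 2 and 3 (mean 8080 ± 3919, n = 3). Only replicate 2 held it among the strongest 7993. The promoter summit of cwo, 51 bp downstream of the start, ranked 10816 in the pooled list and 7943 and 11081 in replicates 2 and 3, with no match in replicate 1. The window held 10 pooled peaks in all, which covered 21.5% of its bases.

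cyc (FBgn0023094, chr3L:19813770-19815938, minus strand) encodes the partner of the Clk protein. Both optimal peaks in its window lay over 2 kb upstream, at the divergent start sites of Fibp and Deaf1. The summit at rank 1421 was 2015 bp upstream of cyc, 14 bp inside Fibp and 221 bp upstream of the Deaf1 start. It ranked 1183, 2200 and 1141 in replicates 1, 2 and 3 (mean 1508 ± 600, n = 3). The summit at rank 7820 lay on the Deaf1 start within almost the same interval, and it was found in replicates 2 and 3 only, in replicate 3 as the same peak as the first.

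The cyc start itself had a pooled summit 17 bp downstream at rank 20520. Promoter peaks of the single replicates ranked 5343 in replicate 2 and 5859 in replicate 3, and replicate 1 had none. With peaks counted only where the nearest protein-coding start was the clock gene's own, a choice made after the data had been seen, cyc had no optimal peak and 4 clock genes, vri, Pdp1, cwo and cry, kept 16.

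Clk (FBgn0023076, chr3L:7763233-7775603, minus strand), the activator at the head of the loop, had no peak in its 18.4 kb window in the optimal set, the pooled list, replicate 2 or replicate 3. Replicate 1 alone had 1, at rank 17527, 34 bp upstream of the start of Clk-RA, Clk-RD and Clk-RF. The nearest optimal summit was 7970 bp away, at rank 1372. Pooled peaks lay in the windows of 74.8% of protein-coding genes.

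per (FBgn0003068, chrX:2685580-2692780, plus strand), whose protein blocks the Clk and cyc pair, had its strongest pooled summit 311 bp upstream of the single start, at rank 9474, below the last optimal rank of 7993. It was found in all 3 replicate lists, at ranks of 10915, 9514 and 13967 (mean 11465 ± 2277, n = 3), each time outside the strongest 7993. The nearest optimal summit was the strongest of the whole set, at the promoter of Ugalt, a nucleotide sugar transporter gene, 18310 bp downstream of the per start.

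tim (FBgn0014396, chr2L:3493986-3508119, minus strand), whose protein pairs with that of per, has 3 TSSs within 0.901 kb. Its window held 3 pooled peaks, none optimal, and replicate 2 had no peak there. The strongest, at rank 13164, was intronic, 8347 bp downstream of the tim-RB start, and ranked 13740 in replicate 1 and 13202 in replicate 3. The promoter summit lay 48 bp upstream of that start, which tim-RB shares with 5 other transcripts, at rank 26154, and replicate 1 matched it at rank 14815. Replicate 3 had a promoter peak at another position, at rank 18460, 253 bp downstream of the tim-RM start. The nearest optimal summit was 24259 bp away.

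**Figure D3:**
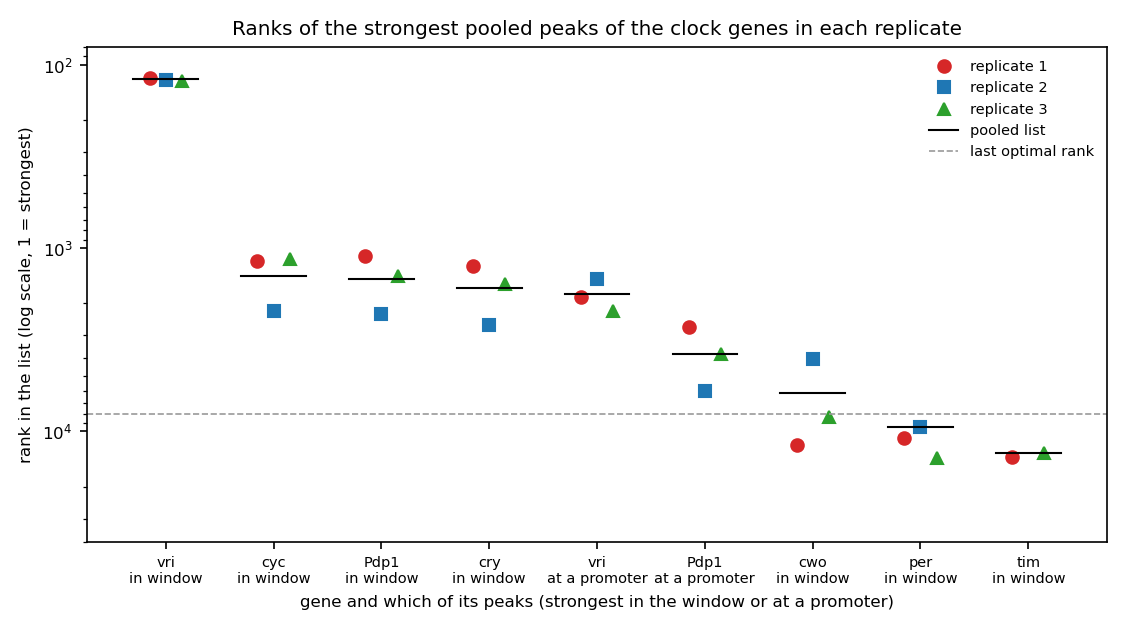
Rank of the strongest peak in the window of each clock gene, with the strongest promoter peak added for vri and Pdp1 (horizontal axis). Ranks are in the 3 replicate lists (symbols) and the pooled list (bars), on a log axis with the strongest at the top. The dashed line is the last optimal rank, and the cyc peak lies at the starts of Fibp and Deaf1. The vri symbols coincide near rank 120, those of cyc, Pdp1 and cry overlap between ranks 1112 and 2633, and those of per and tim lie below the line; tim has no match in replicate 2 and Clk has no pooled peak.

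In the order of the strongest window peak, vri came first, then cyc, Pdp1, cry and cwo. The cyc peak in this order is the one at the Fibp and Deaf1 starts, which are nearer to it than the cyc start. The range over replicates of vri, 118 to 122, did not overlap that of cyc, 1141 to 2200. The ranges of cyc, Pdp1 (1112 to 2290) and cry (1256 to 2633) overlapped, so their order is within the replicate spread. The range of cwo, 4033 to 11856, was apart from that of cry. At promoters, cry and vri overlapped, with ranges of 1256 to 2633 and 1476 to 2203, and Pdp1, with 2689 to 6021, came after both. In the plot of ranks by replicate, replicate 2 gave the weakest rank to cyc, Pdp1 and cry and the strongest to the vri-RC promoter, cwo and per.

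The 8 genes have 40 annotated transcripts from 16 TSSs, of which 3 had an optimal summit within 500 bp. The share of genes with a promoter peak rises with the number of start sites. It was 22.7% of protein-coding genes with 1 TSS, 39.9% with 2 and 58.6% with 3 or more. Of the 4 clock genes with 1 TSS, cyc, per, cwo and cry, 1 had a promoter peak. Clk, with 2, had none. Of the 3 genes with 3 or more, tim, vri and Pdp1, both bZIP genes had one. In the pooled list 7 of 8 clock genes, all but Clk, had a summit within 500 bp of a TSS, against 47.8% of all protein-coding genes. In replicates 1, 2 and 3 it was 6, 6 and 7 clock genes, beside 47.3%, 50.8% and 50.4%. These pooled and replicate shares were not taken by the number of TSSs. Some of the pooled summits were weak, as that of tim at rank 26154, matched in replicate 1 only. That of cyc, at rank 20520, was matched in replicate 2 only.

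CACGTG, read on both strands, was found within 50 bp of 0 of 19 optimal summits of the clock genes, against 0.576% of the 7993 optimal windows of 101 bp. CACGTG was thus rare at optimal summits in general. The looser CANNTG, which also covers CACGTG, occurred in 5 of 19 (26.3%), against 31.8% of all optimal windows. The sterol regulatory element TCACNCCAC was in none of the 19, against 0.15% of all optimal windows, and the sterol regulatory element of the human LDL receptor promoter was in none of either. TATCGATA, which is the core of the DNA replication-related element, occurred once, at the Deaf1 summit in the cyc window, and in 1.44% of all optimal windows. The other words searched were in none of the 19. Over all optimal windows TTATGTAA was in 1.06%, GAGAGAG in 0.976%, GTGATCAC in 0.113%, TGACGTCA in 0.0375% and TCACGTGA in 0.025%.

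The windows of the 8 genes nevertheless held 48 CACGTG sites. Of these 1 (2.08%) lay inside an optimal peak, against 1.88% of the sites in the windows of all protein-coding genes, and 14 (29.2%) inside a pooled peak, against 8.71%. Pooled peaks covered more of these windows than of the genome, as given for vri, and sites in 1 gene share its peaks. These site counts were made after the peak positions had been seen. The sites below were chosen as those of vri within pooled peaks, those of cwo within 20 bp of a pooled summit, that of Pdp1 in its optimal peak, that of tim in a pooled peak, and that of per nearest its promoter summit. Capitals mark CACGTG, and 10 bases are shown on each side, 5′ to 3′ on the gene's strand.
vri, chr2L:5303342-5303367, plus strand: cattccacgaCACGTGaccgctccgc
vri, chr2L:5303927-5303952, plus strand: ttggtccggaCACGTGaatcgggcga
vri, chr2L:5303945-5303970, plus strand: tcgggcgactCACGTGgatatcgcgc
vri, chr2L:5304666-5304691, plus strand: gtttcaaagcCACGTGatctgtcgat
cwo, chr3R:10390442-10390467, plus strand: gggtgctgttCACGTGctcgggtggc
cwo, chr3R:10393228-10393253, plus strand: acaattatatCACGTGcccgcccggt
Pdp1, chr3L:7863742-7863767, minus strand: tatcaatctaCACGTGttgaaagacg
tim, chr2L:3507407-3507432, minus strand: gttgtgattaCACGTGagccgatttc
per, chrX:2685040-2685065, plus strand: agccgccgctCACGTGgcgaactgcg

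All 4 CACGTG sites of vri lay in weak pooled peaks between the vri-RC start and that of vri-RA, and none near the strong first-intron peaks. The site 10 bp from a summit belonged to the peak at rank 21278, which ranked 14835, 19894 and 21718 in replicates 1, 2 and 3. The other 3 were 102 and 120 bp from the summit at rank 18875 and 57 bp from that at rank 23975. They sat 972 to 2296 bp upstream of the vri-RA start.

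cwo had 15 sites, of which 5 were in pooled peaks. The closest was 1 bp from the summit at rank 11854, matched at ranks 15952 and 12659 in replicates 1 and 3, and another was 13 bp from the summit at rank 28423. Pdp1 had 13 sites, 4 of them in pooled peaks, and its site in the optimal peak at rank 1468 was 151 bp from the summit. per had 9 sites and none in a pooled peak. The printed per site, 528 bp upstream of its start, was 217 bp from the summit at rank 9474 and outside that peak. tim had 2 sites, of which the printed one was 185 bp downstream of the start of tim-RO and 153 bp from a summit. Clk and cyc had 2 sites each and cry 1, none in a peak.

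TTATGTAA, the site that the vri and Pdp1 proteins share, occurred 21 times in the 8 windows. Of these, 2 (9.52%) were inside an optimal peak, against 2.8% of the sites in the windows of all protein-coding genes, and 4 (19.0%) inside a pooled peak, against 8.95%. Peaks also covered more of the 8 windows, 3.76% of bases for optimal and 13.8% for pooled peaks, against 1.88% and 7.92% of the 6 arms. The arms include bases outside gene windows, and the cover of the windows of all protein-coding genes was not taken. Both sites inside an optimal peak lay in the strongest vri peak, 159 bp to one side of its summit and 146 bp to the other. The others were a vri site 39 bp from the pooled summit at rank 14830 and a Pdp1 site 48 bp from the pooled summit at rank 8147, by the first Pdp1 start. All 4 are shown, read on the gene's strand. Capitals mark the site, where TTACATAA is its reverse complement.
vri, chr2L:5292598-5292625, plus strand: cgcttgtcgcTTATGTAAtacaatcctt
vri, chr2L:5292903-5292930, plus strand: gtattctagaTTACATAAagcgcaagat
vri, chr2L:5298132-5298159, plus strand: taggtgggcaTTACATAAttgctcgtcg
Pdp1, chr3L:7867639-7867666, minus strand: cgactctccgTTACATAAggcttatata
The window of Clk, the gene on which those proteins are known to act, held 5 TTATGTAA sites. They could only lie outside peaks, since no optimal or pooled peak covered any of that window.

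Other genes of the clock system were taken as 3 lists by function. Among kinases, phosphatases and proteins of turnover, which set the stability and timing of the clock proteins, 9 of 13 (69.2%) had a promoter peak and all 13 an optimal peak in the window. Among genes of transcription, RNA binding and translation it was 7 of 9 (77.8%) at promoters and 7 of 9 in windows. Among output, neuropeptide and light input genes it was 2 of 10 (20%) at promoters and 4 of 10 (40%) in windows. Together 18 of 32 (56.2%) had a promoter peak, against 3 of the 8 core genes and 28.7% of all protein-coding genes. An optimal peak lay in the windows of 24 of 32 (75.0%), against 55.7% of all protein-coding genes. The window shares of the lists were not taken by window length, with which such shares rise, as given above. Many of the 32 genes have several starts, as sgg with 11 and Eip75B with 7. The promoter shares were therefore also taken by the number of TSSs. Of those with 1 TSS 2 of 12 (16.7%) had a promoter peak, with 2 TSSs 5 of 7 (71.4%), and with 3 or more 11 of 13 (84.6%). The shares of all protein-coding genes given above were 22.7%, 39.9% and 58.6%. The class of 3 or more has no upper bound, so genes such as sgg and Eip75B are not matched in it for the number of starts. When only optimal peaks found in all 3 replicates counted, 15 of the 32 had a promoter peak. It was 13 of the 32 when a summit counted for the closest TSS alone, since some peaks lie at starts shared with another gene. No like share of all protein-coding genes was taken for either count.

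**Figure D4:**
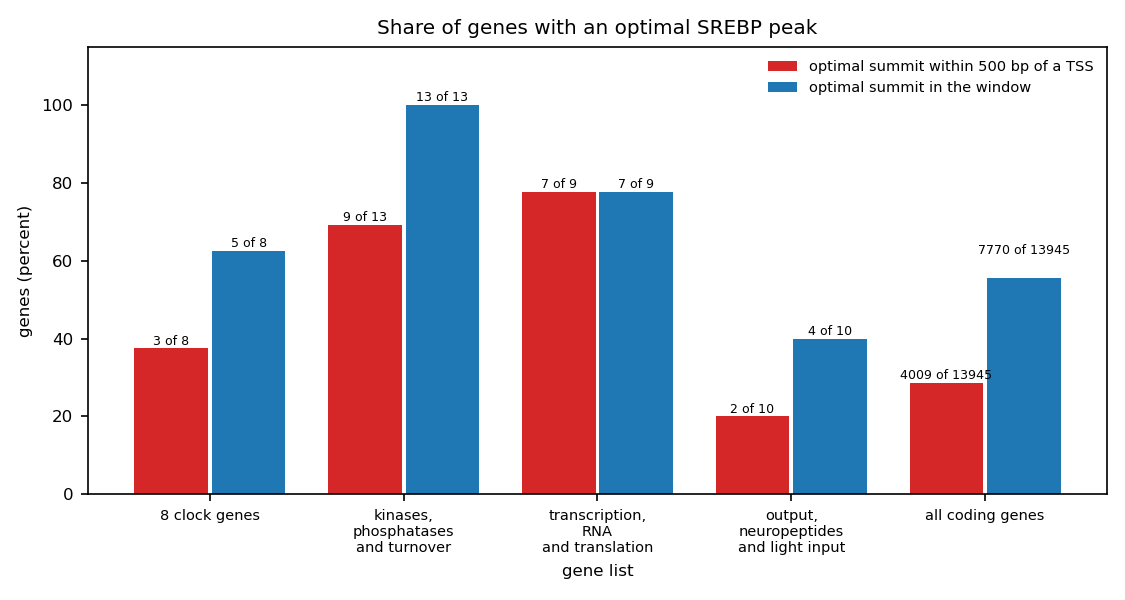
Percent of genes with an optimal summit within 500 bp of a TSS (red) and in the window (blue), for the 8 clock genes, the 3 lists of other clock genes and all protein-coding genes; counts stand above the bars. The core genes reach 37.5% and 62.5%, and all protein-coding genes 28.7% and 55.7%.

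sgg, the glycogen synthase kinase 3 of flies that phosphorylates the tim protein, had the strongest promoter peak of the first list. It ranked 284 in the pooled list and 388, 238 and 277 in replicates 1, 2 and 3 (mean 301 ± 77.8, n = 3). It was followed by mts, the catalytic subunit of protein phosphatase 2A, at rank 1670, with a summit that lies also near the start of Rack1. dco, the casein kinase that phosphorylates the per protein, was at rank 2163 and wdb, a regulatory subunit of the phosphatase, at 2394. CkIIalpha and nmo had no optimal promoter peak.

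In the second list the strongest was Eip75B, a nuclear receptor gene, at rank 261, with replicate ranks of 333, 175 and 339 (mean 282 ± 93.0). kay, the fly Fos gene, followed at rank 2951, Br140 at 3271, with a peak shared with Incenp, and Mef2, a muscle and neuronal transcription factor, at 4963. Hr51 and Nipped-A had no optimal peak in their windows. In the third list qsm, at rank 3173, and the phospholipase C gene norpA, at rank 6153, had promoter peaks. Pdf, the neuropeptide of the clock neurons, had no optimal peak in its window, and Pdfr, its receptor, had one at rank 7631 but none at a promoter.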

How the data were processed

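ChIP-seq peak lists of 3 biological replicates of 1 group were used. The antibody field of the labels names HLH106, another name of SREBP, while their description gives anti-GFP. Fragments were of 200 to 800 bp, per the labels. Per the deposited notes, the lists are narrowPeak files on dm6. A replicate's list was made from its own alignments together with 1 file common to all lists, the pooled list from all 3 sets of alignments with that file, and the optimal set from these lists by the irreproducible discovery rate. For the aligner, the peak caller and the threshold, the sources used here name nothing. Peaks were ranked within each list by the deposited signal value. The deposited −log10 q-value was not used.

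The 8 genes, the other lists, the motifs and the rules were chosen with earlier results of these data known. Gene models came from Ensembl release 115 and sequences from the RefSeq assembly of the same arms (release 6, dm6). Coordinates count from 1. A summit within 5 kb of several genes counted for each. Start sites within 500 bp of each other form 1 promoter, which leaves 15 of 16. Replicate values are from the strongest summit within 150 bp. Since there was 1 group, no test was made. Among the names were all 8 genes with up to 6 peaks each, up to 4 bound and 2 unbound genes of each other list, the 4 genes most like the strongest promoter peak, and genes sharing a named peak. The Pdfr window peak and the counts of motif sites in whole windows were added after values had been seen. Of the 32 other clock genes, 1 was matched by a synonym (Nlf-1 as Mid1). Counting was tested on simulated data. Alternatives covered distances, peak sets, matching and left-out replicates. Python 3.11.15, numpy 2.4.6, pandas 2.3.3 and matplotlib 3.10.9 were used. The lists hold no reads, so no interval for depth could be given.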

Additional observations from a re-analysis of the deposited data

How the results depend on the processing

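Of 45 alternative counts, 36 were within 1.5 times the reported one, among them the 2 clock genes bound within 250 bp of a TSS, where Pdp1 is lost. With gene bodies only, 3 clock genes had an optimal peak, since the cyc and cry peaks lie upstream. With the optimal peaks above their median signal, 10 peaks lay in clock gene windows and 10 other clock genes were bound at a promoter. With all pooled peaks, 7 clock genes and 10 of their TSSs were bound, 67 peaks lay in the windows, and 3 of those had CACGTG within 50 bp. Within 250 bp of the summit 1 optimal peak had it, that of Pdp1 at rank 1468. With replicate summits matched within 50 bp, 9 of the 19 peaks were found in all replicates. Leaving out 1 replicate, 15 to 17 were found in both others. All 62 alternatives for mean ranks stayed within 1 SD, but this says little about their stability. Leaving out 1 replicate cannot move a mean by 1 SD of the same values, and most other settings gave the same mean again. With 1 replicate left out, the mean of 8080 for the window peak of cwo became 6192 to 10103, and that for cry became 1409 to 2098. No paired analysis was possible because there is 1 group and no test. When a promoter summit counted for the closest TSS alone, 13 of the other clock genes and 3 core genes were bound. Beyond the shares given here, no like share of all genes or peaks was taken for the altered counts of this paragraph. Depth is unknown, so an absent peak shows only that none was listed, and each list ends at 30000.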

Other observations

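The summit windows of the clock genes were rich in A and T. The 19 windows of 101 bp had a median G+C content of 28.7%, between 18.8% and 53.5%, and all optimal windows had a median of 30.7%, between 8.91% and 71.3%. The complete windows of the 8 genes had 41.7% and the 6 arms 42.2%, so low G+C at the summits was shared with the optimal set as a whole. Within vri the summits ranged from 20.8% to 53.5%. After the sequences had been seen, the forkhead-type words TGTTTAC and TATTTAC were counted on both strands. Other words of that type were not counted, so the shares that follow cover these words only. TGTTTAC was in 1 of 19 windows (5.26%), that of the vri-RC promoter, against 2.44% of all optimal windows, and TATTTAC in 1 of 19 (5.26%), the Pdp1 peak at rank 2005, against 4.97%.

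Some other clock genes had stronger peaks away from their promoters. The strongest optimal peak in the window ranked 14 for Mef2, 27 for norpA, 59 for Eip75B and 84 for jet, the F-box gene of light-driven loss of the tim protein, which has no promoter peak. These windows were long in several cases and one summit can lie in the windows of several genes, so the peaks are listed by position only, and were named after their values had been seen.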
